A study of Mus musculus with 24 samples.

Results

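Chromatin accessibility was examined at 8 genes of arginine metabolism in mouse bone marrow-derived macrophages (BMDMs): Nos2, Arg1, Arg2, Slc7a2, Ass1, Asl, Odc1 and Gch1. The members were the consensus peaks, that is the open regions merged over all libraries, that overlapped the body of one of these genes or the 20 kb on either side of it in the GENCODE vM21 annotation, and each peak went to the nearest of the 8 genes. This gave 126 of 184158 consensus peaks. Slc7a2 had 33 of them, Ass1 21, Nos2 20, Gch1 13, Asl 12, Arg1 11, Odc1 9 and Arg2 7. The choice used positions only and no measured value, though a consensus peak can rest on calls in a single group.

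ATAC-seq, in which a transposase inserts sequencing adapters into open chromatin, was performed on 24 libraries in 4 groups of 6, which were the unstimulated and the LPS-treated BMDMs of each genotype, WT and AhR-KO. Per the study's methods, WT mice were C57/B6/J and AhR-KO mice carried the Ahr tm1Bra null allele in all cells (B6.129-Ahr tm1Bra/J), and male and female mice of 7 to 14 weeks were used. Marrow of both genotypes was grown with GM-CSF at 10 ng/ml, TGF-β at 2 ng/ml and 10% serum, a culture meant to resemble alveolar macrophages, which were not themselves assayed here. LPS, a bacterial cell wall component sensed by TLR4, was added on day 6 at 97 EU/ml for 24 h, and the calcium ionophore A23187 at 5 µM for the last 10 min. The labels attach this treatment text to every library, so the unstimulated groups are known only by their own label, and all 4 groups shared the ionophore as far as the text goes. The protein missing in AhR-KO, the aryl hydrocarbon receptor, binds small aromatic molecules and then DNA. The labels do not name the animals. The study states 6 animals per group, and if libraries shared an animal the p-values below would measure technical spread.

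Arginine is a branch point in macrophages. The inducible nitric oxide synthase NOS2 turns it into nitric oxide and citrulline and needs tetrahydrobiopterin, whose synthesis starts with the GTP cyclohydrolase GCH1. SLC7A2 carries arginine into the cell, and ASS1 and ASL rebuild it from citrulline. The arginases ARG1 (cytosolic) and ARG2 (mitochondrial) split it into urea and ornithine, which ornithine decarboxylase ODC1 turns into putrescine, the first polyamine. NOS2 is a classical LPS-induced enzyme of mouse macrophages, whereas ARG1 is best known from macrophages exposed to IL-4.

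Levels are given in CPM (counts per M counts, where M stands for mega), the count in a peak relative to the TMM-normalized library total in peaks, as mean ± SD or as the lowest, median and highest of 6 libraries. Differences are log2 fold changes with their standard error (SE) from an edgeR quasi-likelihood fit, and adjusted p-values are by the Benjamini-Hochberg method over all 174193 peaks tested, 124 of them members. Peaks that reached a 1.5-fold change at an adjusted p no higher than 0.05 are called differentially accessible regions (DARs). The interaction is the genotype difference with LPS minus the genotype difference without it. Peaks of 1 gene are read from the same libraries and are not replicates of each other. Coordinates are on mm10 and counted from 1.

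Peaks away from the promoters carried most of the differences described below, and the sequence at the centre of 6 of them is shown because these peaks had the smallest p-values of their gene in at least 1 comparison. Each window has 300 bases of the plus strand of GRCm38 (mm10) as given by RefSeq. Capitals mark matches to motifs searched on both strands.
Nos2, intron, opened by LPS and further in AhR-KO, chr11:78942341-78942640: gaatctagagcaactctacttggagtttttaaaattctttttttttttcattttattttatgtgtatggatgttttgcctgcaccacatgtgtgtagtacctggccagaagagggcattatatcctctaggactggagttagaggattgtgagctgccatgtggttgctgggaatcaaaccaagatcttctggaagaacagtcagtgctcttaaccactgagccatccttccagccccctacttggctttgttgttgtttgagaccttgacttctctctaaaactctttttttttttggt
Slc7a2, upstream, opened by LPS, chr8:40855318-40855617: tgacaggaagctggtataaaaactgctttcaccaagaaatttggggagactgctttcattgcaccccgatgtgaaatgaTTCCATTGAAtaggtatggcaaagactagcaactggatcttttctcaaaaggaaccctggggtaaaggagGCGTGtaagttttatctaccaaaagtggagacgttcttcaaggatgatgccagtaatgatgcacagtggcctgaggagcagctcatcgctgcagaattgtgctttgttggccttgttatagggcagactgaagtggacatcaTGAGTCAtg
Arg1, downstream, in a coding exon of the neighbouring gene Med23, opened by LPS, chr10:24908791-24909090: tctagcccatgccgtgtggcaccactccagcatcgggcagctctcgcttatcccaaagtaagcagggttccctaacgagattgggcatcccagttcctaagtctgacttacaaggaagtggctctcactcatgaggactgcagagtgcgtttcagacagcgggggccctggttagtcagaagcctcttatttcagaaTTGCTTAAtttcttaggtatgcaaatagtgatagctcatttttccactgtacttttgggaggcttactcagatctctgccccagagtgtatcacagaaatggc
Odc1, upstream, lower in AhR-KO, chr12:17540407-17540706: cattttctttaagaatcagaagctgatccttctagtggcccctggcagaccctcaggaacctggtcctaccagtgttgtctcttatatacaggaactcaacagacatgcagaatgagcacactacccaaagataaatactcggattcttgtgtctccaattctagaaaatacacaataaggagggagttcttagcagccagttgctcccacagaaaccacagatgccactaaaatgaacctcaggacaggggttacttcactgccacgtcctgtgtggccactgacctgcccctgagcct
Gch1, downstream, higher in AhR-KO without LPS, chr14:47148424-47148723: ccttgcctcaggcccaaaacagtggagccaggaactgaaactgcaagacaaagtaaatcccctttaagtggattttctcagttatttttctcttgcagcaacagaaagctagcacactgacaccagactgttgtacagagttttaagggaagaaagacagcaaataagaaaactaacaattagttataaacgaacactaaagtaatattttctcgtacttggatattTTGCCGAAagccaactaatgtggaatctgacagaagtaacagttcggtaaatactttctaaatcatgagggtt
Gch1, downstream, higher in AhR-KO with LPS, chr14:47151580-47151879: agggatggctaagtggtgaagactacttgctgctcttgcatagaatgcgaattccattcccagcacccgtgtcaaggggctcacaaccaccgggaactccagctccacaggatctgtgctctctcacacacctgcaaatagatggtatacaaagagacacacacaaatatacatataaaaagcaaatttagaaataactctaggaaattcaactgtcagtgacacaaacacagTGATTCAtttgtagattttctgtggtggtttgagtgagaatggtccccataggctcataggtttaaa
The Nos2, Odc1 and both Gch1 windows overlapped no annotated exon, nor did the Slc7a2 window. The Slc7a2 window held 3 matches. These were a STAT6-type site at bases 80 to 89, the AhR core GCGTG at bases 150 to 154 and an AP-1 site at bases 292 to 298. The Arg1 window held a C/EBP match at bases 198 to 205 and the Gch1 windows a C/EBP match at bases 228 to 235 and an AP-1 match at bases 234 to 240, respectively, while the Nos2 and Odc1 windows held none.

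The same search was run on 25 peaks, which were the promoter peak of each gene and, per gene and comparison, the DAR with the smallest p. Other peaks named below were not searched. The AhR core GCGTG was found in 5 of the 25 windows, against 16.3% of the centre windows of all tested peaks, AP-1 (TGANTCA) in 4 against 18.1%, C/EBP (TTGCNNAA) in 5 against 15.8%, PU.1 (GAGGAA) in 4 against 37.7%, GAS (TTCNNNGAA) in 1 against 11.1%, the STAT6 type in 2 against 8.34%, the ISRE core in 1 against 4.60%, the E-box (CACGTG) in 2 against 4.27%, and the NF-kB consensus in 0 against 4.88%. No matches of different motifs overlapped. A match is a run of letters in these windows and not a shown binding site.

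Library totals in peaks ran from 8.54 M to 34.6 M counts, with group means in M of 18.6 ± 5.62 and 22.7 ± 2.25 for unstimulated WT and AhR-KO and of 30.6 ± 3.39 and 25.6 ± 2.27 for the same with LPS, so unstimulated levels rest on fewer counts. At the targeted gene, no consensus peak covered exon 2 of Ahr, so the data do not check the deletion itself. The Ahr promoter peak, which lies outside that exon, ran from 20.2 to 24.6 CPM in WT and from 11.5 to 15.1 CPM in AhR-KO without LPS, and from 18.99 to 22.2 and 11.9 to 16.8 CPM with LPS. Promoter peaks were found for 8 of 8 macrophage markers, with summed levels of 152 to 177 and 176 to 219 CPM in unstimulated WT and AhR-KO and of 146 to 163 and 136 to 188 CPM with LPS, and edgeR called none of them a DAR by genotype (4 without and 2 with LPS had an unadjusted p of at most 0.05, and DESeq2 called 1 without LPS). Cd68 (log2 0.57), Mertk (0.44), Itgam (0.33) and Lyz2 (0.20) were higher in unstimulated AhR-KO at an edgeR adjusted p of at most 0.05. With LPS this held for Mertk (0.24), and all of these were below the fold limit. Of the alveolar macrophage markers, 6 of 6 had a peak, with summed levels of 52.2 to 58.2, 68.1 to 84.0, 45.5 to 53.7 and 51.5 to 64.7 CPM in the same order, and Marco (log2 0.94), Itgax (0.72) and Car4 (0.61) were higher in unstimulated AhR-KO. Dendritic cell markers (6 of 6 with a peak) summed to 46.1 to 62.0, 51.2 to 60.7, 49.9 to 78.3 and 44.6 to 48.9 CPM, and Flt3 and Dpp4 were lower in AhR-KO with and without LPS and Ccr7 with LPS. In the other direction, Batf3 (log2 0.42) and Zbtb46 (0.21) were higher in unstimulated AhR-KO at an edgeR adjusted p of at most 0.05, below the fold limit. With LPS these 2 were at -0.14 and -0.19. The lymphocyte markers Cd3e, Cd79a and Ncr1 had no promoter peak. Neutrophil markers (5 of 6 with a peak) summed to 33.4 to 43.3, 37.9 to 42.2, 30.7 to 38.7 and 31.1 to 36.03 CPM, and S100a9 was lower in AhR-KO in both conditions. The rest of this list went both ways in unstimulated AhR-KO at an edgeR adjusted p of at most 0.05, below the fold limit. Elane (log2 0.31) and S100a8 (0.25) were higher, and Ly6g (-0.51) and Csf3r (-0.36) lower. Stromal and epithelial markers (3 of 3 with a peak) summed to 14.9 to 16.3, 12.5 to 13.6, 14.3 to 15.3 and 11.5 to 14.9 CPM. Epcam was lower in AhR-KO without (log2 -0.47) and with LPS (-0.42) at an edgeR adjusted p of at most 0.05, below the fold limit. By genotype, Col1a1 and Pdgfra had an adjusted p above 0.05. The part of these marker differences in the results below was not tested.

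Over the member peaks together, more rose than fell with LPS in both genotypes, and more were higher than lower in AhR-KO. Nos2, Slc7a2 and Ass1 held most of the peaks raised by LPS, whereas Asl had 1 higher and 1 lower in WT and 1 higher and 2 lower in AhR-KO, and Odc1 had 2 higher and 3 lower in WT. In unstimulated cells, 29 member peaks were higher and 5 lower in AhR-KO than in WT, or 27.4% of those tested, against 22.6% of all peaks (9.95% higher and 12.6% lower). With LPS, 58 were higher and 4 lower, or 50.0%, against 26.5% of all peaks (13.4% higher and 13.1% lower). By gene, these shares without and with LPS were 0.0% and 80.0% at Nos2, 65.6% in both at Slc7a2 and 23.8% and 52.4% at Ass1. They were 18.2% and 36.4% at Arg1, 0.0% and 14.3% at Arg2 and 9.09% and 0.0% at Asl. At Odc1 they were 11.1% and 33.3%, and at Gch1 30.8% and 46.2%. LPS raised 72 and lowered 5 member peaks in WT (62.1%, against 47.0% of all peaks) and raised 79 and lowered 5 in AhR-KO (67.7%, against 48.8%, with 27.3% raised). The interaction called 12 peaks higher and 3 lower (12.1%, against 10.4%, of which 5.83% higher and 4.58% lower). The median log2 fold change over the member peaks was 0.25 for genotype without LPS, 0.55 with LPS, 1.05 for LPS in WT and 1.23 in AhR-KO, where the medians over all peaks were -0.02, 0.02, -0.01 and 0.05. By groups that did not overlap, 20 member peaks were higher and 4 lower in unstimulated AhR-KO than in WT (all peaks, 9.78% and 11.3%), and 53 and 2 with LPS (10.6% and 8.96%). Some member peaks of Nos2, Slc7a2, Ass1, Arg1, Odc1 and Gch1 were called on single libraries in AhR-KO LPS only. They entered the consensus set through that group. Counts by genotype with LPS, for LPS in AhR-KO and by interaction, here and below, are thus not independent of that choice. In bulk libraries, fewer cells with an open site and less opening per cell cannot be told apart.

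These DARs lay mostly along the gene bodies. None of the 8 promoter peaks was a DAR by genotype in edgeR or DESeq2, where 5.43% (unstimulated) and 6.34% (LPS) of all peaks over a transcription start site (TSS) were, although 4 in unstimulated cells (Asl, Slc7a2, Arg2 and Ass1) and 4 with LPS (Nos2, Arg1, Slc7a2 and Arg2) had an adjusted p, and the same number an unadjusted p, of at most 0.05 below the 1.5-fold limit. LPS raised the promoter peak of Nos2 past the limit in WT (background 9.29%) and those of Nos2 and Arg2 in AhR-KO (14.5%), and at any fold 4 promoter peaks in WT and 6 in AhR-KO had an adjusted p of at most 0.05 for LPS in edgeR. Of the 70 peaks inside gene bodies, 24 were higher and 2 lower in unstimulated AhR-KO, and 47 were higher and 1 lower with LPS, while peaks not over a TSS were DARs in 23.8% and 27.9% of cases across the genome. LPS raised 55 of these gene body peaks in WT and 60 in AhR-KO, while 49.7% and 51.3% of all peaks not over a TSS were DARs with LPS, in either direction. Some of these gene body peaks were called on single libraries in AhR-KO LPS only. The gene body counts by genotype with LPS and for LPS in AhR-KO are therefore not independent of how the peaks were chosen. The 22 upstream peaks counted 0 higher and 2 lower in unstimulated AhR-KO, and 3 higher and 1 lower with LPS.

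**Figure D1:**
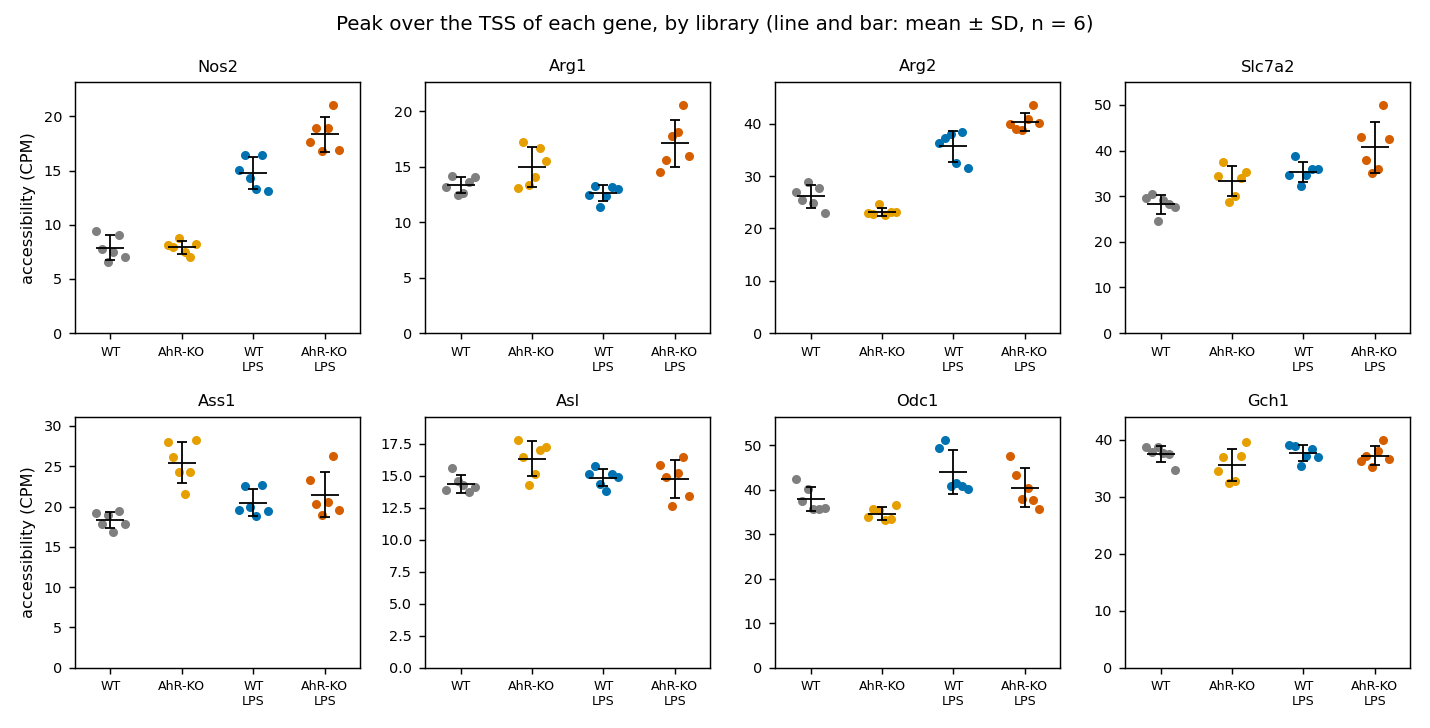
Accessibility in CPM of the peak over the TSS of each of the 8 genes, one point per library (6 per group) with the group mean and SD; WT and AhR-KO without a further label are the unstimulated groups. The Nos2 promoter peak sits between 13.1 and 21.05 CPM in the LPS libraries and between 6.53 and 9.38 CPM in the unstimulated ones, while at Gch1 and Asl all 4 groups overlap.

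Nos2 (chr11:78920787-78960254, plus strand) showed the widest differences of the 8 genes, and they were seen with LPS. Without LPS, the promoter peak (chr11:78919805-78921040) was at 6.53, 7.65 and 9.38 CPM (lowest, median and highest) in WT and at 7.02, 8.05 and 8.74 CPM in AhR-KO, and the groups overlapped. With LPS it was at 13.1, 14.7 and 16.4 CPM in WT and at 16.8, 18.3 and 21.05 CPM in AhR-KO, so that all 6 AhR-KO libraries lay above all 6 WT libraries. LPS raised it by 0.93 ± 0.09 (SE) in WT and 1.21 ± 0.09 in AhR-KO (log2). The genotype difference with LPS, 0.31 ± 0.08 (edgeR adjusted p = 0.0014), was below the 1.5-fold limit.

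Inside the gene the differences were far larger than at the promoter. The intronic peak chr11:78941421-78943560, whose centre is printed above, was at 0.184, 0.353 and 0.479 CPM in unstimulated WT and at 0.228, 0.530 and 0.703 CPM in unstimulated AhR-KO. After LPS it was at 4.27, 5.23 and 6.59 CPM in WT and at 11.6, 14.2 and 18.6 CPM in AhR-KO. It was thus almost closed in every unstimulated library, and with LPS the AhR-KO libraries lay apart above the WT libraries. It rose by 4.02 ± 0.21 in WT and 4.86 ± 0.18 in AhR-KO (log2), and with LPS was 2.73-fold higher in AhR-KO (log2 1.45 ± 0.12, edgeR adjusted p = 2.0e-11). Its interaction, 0.84 ± 0.36, did not pass the test (edgeR adjusted p = 0.11). In the peak lists called on each library alone, 0 of 12 unstimulated libraries and 12 of 12 LPS libraries had a peak of their own here.

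The peak chr11:78931008-78934011, which covers exonic and intronic sequence of Nos2, separated the genotypes further. It was at 1.498, 2.19 and 3.96 CPM in WT LPS and at 7.53, 14.1 and 19.6 CPM in AhR-KO LPS, and at 1.28 CPM or less in all unstimulated libraries. With LPS it was 5.88-fold higher in AhR-KO (log2 2.56 ± 0.23, edgeR adjusted p = 3.4e-09), and the interaction was 3.07 ± 0.55 (edgeR adjusted p = 0.00055). Called on each library alone, a peak was present here in 5 of 6 AhR-KO LPS libraries and in 0 of 6 of each other group. It thus entered the consensus set through the group in which it was high. A further peak, chosen after its values were seen, starts at the 3′ end of Nos2 and reaches into the neighbouring gene Lgals9 (chr11:78960036-78963523). It was at 3.21, 4.77 and 7.06 CPM in WT LPS and at 13.8, 27.2 and 35.1 CPM in AhR-KO LPS, which in CPM was the highest mean of any Nos2 peak (25.5 ± 8.47), with an interaction of 2.28 ± 0.42.

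Over the 20 Nos2 peaks, edgeR called 0 DARs between unstimulated AhR-KO and WT. At an unadjusted p of at most 0.05 it gave 0 higher and 1 lower, and DESeq2 called 0. That lower peak (chr11:78923090-78923455) became a DAR when WT unstimulated replicate 5, the shallowest library, was left out (log2 -0.61, edgeR adjusted p = 0.0052, from -0.56 and 0.011). With LPS, 16 of 20 were higher in AhR-KO and 0 lower, with a median log2 fold change of 1.97 and a range of 0.12 to 3.01. LPS raised 16 in WT and 19 in AhR-KO. The interaction called 10 higher and 0 lower, or 4 higher when all libraries were thinned to the lowest total. Several of these peaks, such as those starting at 78931008, 78954201 and 78958490, were called on single libraries in AhR-KO LPS only. They entered the consensus set through the group in which they were high. The counts by genotype with LPS and by interaction are therefore not independent of how the peaks were chosen. The 4 peaks that were not DARs by genotype with LPS were the promoter peak, the peak upstream of it at chr11:78915472-78916908, the intronic peak nearest the promoter and 1 peak inside Lgals9.

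Summed over the 15 Nos2 gene body peaks (19.152 kb in all), accessibility was 10.6 ± 1.49 CPM in unstimulated WT and 11.2 ± 2.22 CPM in unstimulated AhR-KO. With LPS it was 33.3 ± 6.12 CPM in WT, and ran from 26.9 to 41.8, and 119 ± 34.3 CPM in AhR-KO, where it ran from 75.3 to 159. The ratio of AhR-KO to WT was 1.05 without and 3.59 with LPS. These sums hold peaks called on single libraries in AhR-KO LPS only, so the ratio with LPS is not independent of how the peaks were chosen. They also include the peak that reaches into Lgals9, of which 219 of 3488 bases lie in Nos2. Without it, a choice made after seeing the data, the sums with LPS were 28.4 ± 4.80 and 93.9 ± 26.3 CPM and the ratios 1.05 and 3.30. The spread within AhR-KO LPS ran through the gene: replicate 1 was lowest of its group at 12 of the 20 peaks, and replicates 5 and 4 were highest at 11 and 8.

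Beyond the gene body, the accessible region upstream at chr11:78913046-78913412 was at 0.842 ± 0.18 CPM in WT LPS and 2.99 ± 0.88 CPM in AhR-KO LPS (log2 1.82 ± 0.19), and the peak inside Lgals9 at chr11:78972920-78973869 at 8.12 and 13.04 CPM (log2 0.68 ± 0.10). Both were chosen after their values were seen. In contrast, the peak just upstream of the promoter, chosen likewise, differed by genotype with LPS by 0.12 ± 0.08 on the log2 scale.

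**Figure D2:**
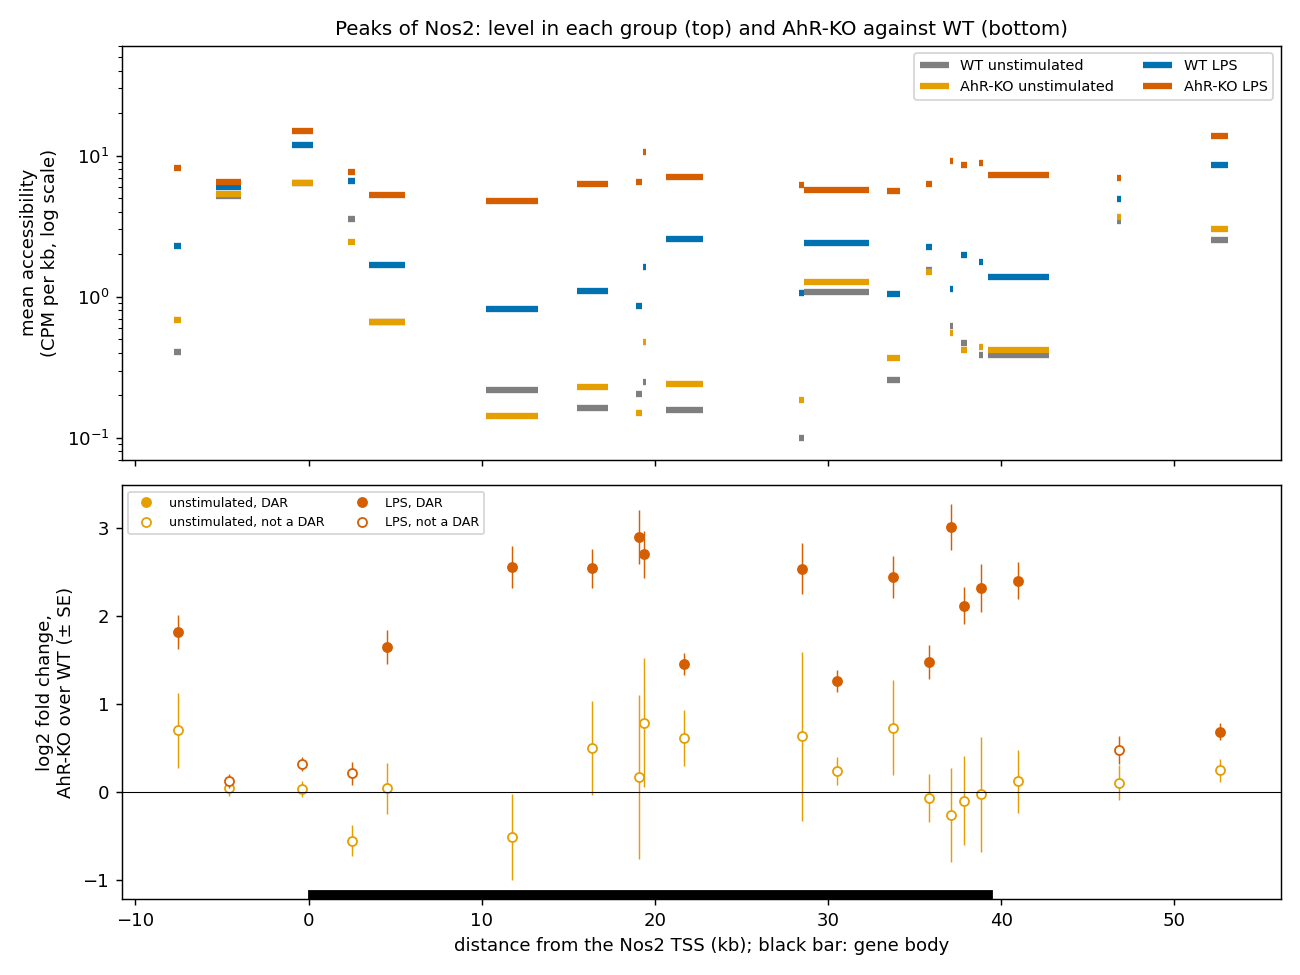
Peaks of Nos2 by distance from its TSS in kb, with the mean level of each group in CPM per kb of peak on a log axis (top, bars as wide as the peaks) and the log2 fold change of AhR-KO over WT ± SE (bottom, filled where the peak was a DAR). In unstimulated cells the points lie between -0.56 and 0.79 with no DAR, and with LPS 16 of 20 are filled, up to 3.01.

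Gch1 (chr14:47153895-47189413, minus strand), which supplies the cofactor of NOS2, did not share this pattern. Its promoter peak (chr14:47187684-47189780) had medians of 37.8, 35.8, 37.8 and 37.0 CPM in unstimulated WT and AhR-KO and then LPS-treated WT and AhR-KO, and the groups overlapped in every comparison. The gene body peaks summed to 55.3 ± 3.96, 48.9 ± 2.36, 60.4 ± 4.81 and 60.7 ± 1.2 CPM in the same order. DARs pointed both ways, with 1 of 13 peaks higher and 3 lower in unstimulated AhR-KO and 3 higher and 3 lower with LPS. With RLE size factors (the median-of-ratios scaling in place of TMM), DESeq2 or the stricter filter (at least 1 CPM in 6 libraries) 1 was called lower in unstimulated AhR-KO, and after thinning 1 was higher and 1 lower with LPS.

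Past the 3′ end of Gch1, neighbouring peaks differed by genotype under opposite conditions. The peak chr14:47148017-47149130 was at 1.94, 2.34 and 2.58 CPM in unstimulated WT and at 5.13, 5.65 and 5.70 CPM in unstimulated AhR-KO, with no overlap, but at 2.16, 3.08 and 3.32 against 2.06, 2.73 and 4.15 CPM with LPS, with overlap. The genotype difference was 1.24 ± 0.15 without LPS and 0.04 ± 0.14 with it, and the interaction was -1.19 ± 0.20 (edgeR adjusted p = 9.8e-05). A few kb nearer to the gene, chr14:47150692-47152766 was at 1.19, 1.72 and 2.21 against 1.49, 1.62 and 1.91 CPM without LPS and at 3.13, 3.42 and 3.67 against 5.01, 6.20 and 7.04 CPM with LPS (WT first). Here the genotypes overlapped without LPS and lay apart with it, and the interaction was 0.86 ± 0.18 (edgeR adjusted p = 0.00092). It did not pass when all libraries were thinned to the lowest total (log2 0.72, edgeR adjusted p = 0.40). Between them, chr14:47149309-47150247, chosen after its values were seen, had an interaction of 1.29 ± 0.28.

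Farther downstream, chr14:47138930-47139234, chosen after its values were seen, was open mainly in unstimulated WT, at 1.98, 4.85 and 5.94 CPM, against 1.13, 1.31 and 1.54 CPM in unstimulated AhR-KO. With LPS it was at 0.945 CPM or less in WT and at 0.497 CPM or less in AhR-KO. It fell with LPS by 2.56 ± 0.22 in WT and 2.15 ± 0.29 in AhR-KO (log2), and was lower in AhR-KO in both conditions (-1.73 ± 0.21 and -1.32 ± 0.31). Inside Gch1, chr14:47159757-47160586 rose with LPS in WT (1.99 ± 0.17) and AhR-KO (1.97 ± 0.15), with an interaction of -0.01 ± 0.20. The intragenic peak chr14:47172034-47172853, also chosen after its values were seen, was lower in AhR-KO without LPS (-0.63 ± 0.13) and with it (-0.66 ± 0.12), but the former was -0.57 with RLE size factors or DESeq2, below the fold limit.

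Slc7a2 (chr8:40862396-40922308, plus strand), the arginine importer, was more accessible in AhR-KO along most of its length whether or not LPS was given. Of its 32 tested peaks, 21 were higher in unstimulated AhR-KO and 21 with LPS, and edgeR called 0 lower in either (1 each at an unadjusted p of at most 0.05, and 0 by DESeq2). The same peak was called in both conditions in 19 cases. LPS raised 26 in WT and 28 in AhR-KO. The interaction called 0 in edgeR, with 3 higher and 2 lower at an unadjusted p of at most 0.05, and 0 in DESeq2. The 24 gene body peaks summed to 67.3 ± 3.72 CPM in unstimulated WT, 106 ± 17.9 in unstimulated AhR-KO, 152 ± 12.1 in WT LPS and then 257 ± 33.3 in AhR-KO LPS, so that the ratio of AhR-KO to WT was 1.57 without and 1.69 with LPS and the rise with LPS was 2.26-fold in WT and 2.43-fold in AhR-KO.

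The Slc7a2 peak with the smallest p by genotype in both conditions lay just past the 3′ end (chr8:40922567-40924817). It was at 6.40, 7.62 and 9.07 CPM in unstimulated WT, at 11.7, 12.955 and 18.2 CPM in unstimulated AhR-KO, at 18.8, 22.1 and 24.5 CPM in WT LPS and at 38.5, 40.7 and 48.6 CPM in AhR-KO LPS. No 2 groups overlapped, in the order unstimulated WT and AhR-KO and then LPS-treated WT and AhR-KO. The genotype difference was 0.86 ± 0.10 (edgeR adjusted p = 1.2e-08) without and 0.94 ± 0.08 (edgeR adjusted p = 5.8e-11) with LPS, and the interaction was 0.08 ± 0.13.

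Upstream, a peak almost closed without LPS was opened by it. A change of the genotype difference with LPS is not shown here, since 0 Slc7a2 peaks had an edgeR adjusted p of at most 0.05 for the interaction at any fold. The peak chr8:40855098-40855836, centred at -6929 bases from the TSS, was at 0.347, 0.380 and 0.465 CPM in unstimulated WT and at 0.351, 0.461 and 0.629 CPM in unstimulated AhR-KO, and rose to 4.82, 5.41 and 5.61 CPM in WT LPS and 7.06, 8.58 and 10.2 CPM in AhR-KO LPS. The unstimulated genotypes overlapped and the LPS genotypes did not. LPS raised it 13.9-fold in WT (log2 3.79 ± 0.15) and 18.4-fold in AhR-KO (log2 4.20 ± 0.14), and AhR-KO exceeded WT by 0.71 ± 0.10 with LPS (edgeR adjusted p = 1.6e-07) and 0.30 ± 0.23 without. Called on each library alone, this peak was absent from all 12 unstimulated libraries and present in all 12 LPS libraries. The promoter peak (chr8:40861537-40863307), with medians of 28.7, 34.2, 35.3 and 40.2 CPM, was a DAR in no comparison. The promoter of the next gene, Pdgfrl, chosen after its values were seen, was at -0.44 without and -0.34 with LPS by genotype, below the fold limit and in the other direction.

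**Figure D3:**
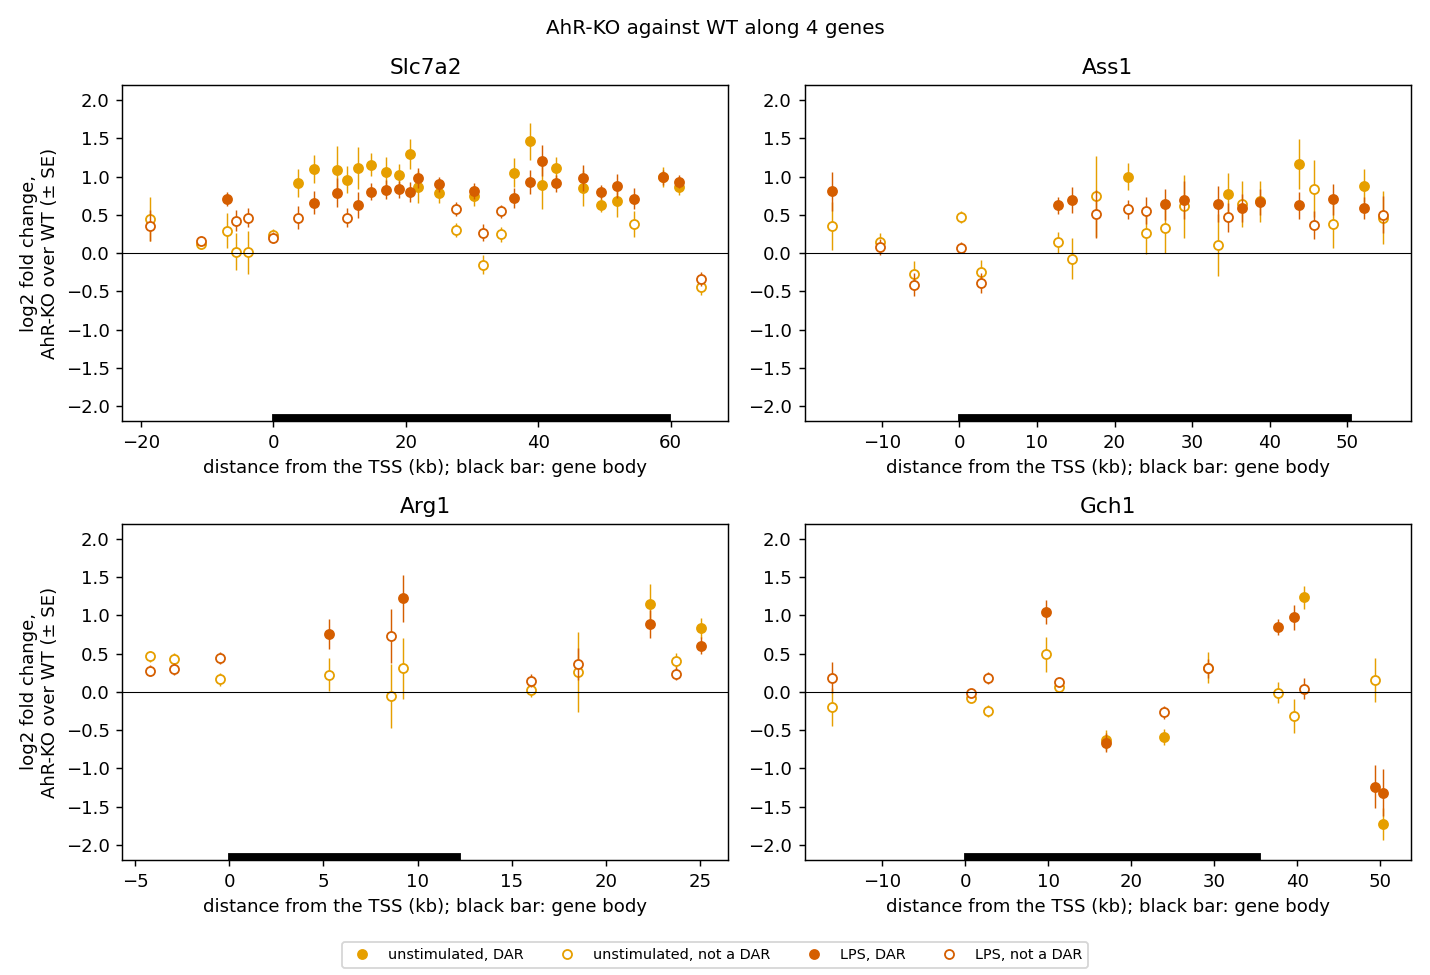
Log2 fold change of AhR-KO over WT ± SE at each tested peak of Slc7a2, Ass1, Arg1 and Gch1 by distance from the TSS in kb, without LPS and with LPS, filled where the peak was a DAR and with the gene body as a black bar. The Slc7a2 points inside the gene lie mostly above 0 in both conditions, while the Gch1 DARs lie on both sides of 0, from -1.73 to 1.24.

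Ass1 (chr2:31470207-31520672, plus strand), which makes argininosuccinate from citrulline, was opened along its body by LPS in both genotypes. LPS raised 17 of 21 peaks in WT and 17 in AhR-KO, 15 of them in the gene body in each case. AhR-KO was higher at 5 peaks without and 11 with LPS and lower at 0. The share without LPS, 23.8%, was near the 22.6% of all peaks, and with LPS it was 52.4% against 26.5%. At an unadjusted p of at most 0.05, edgeR gave 0 lower without and 2 lower with LPS, and DESeq2 called 0 lower in either. The interaction called 0 in edgeR (2 higher and 1 lower at an unadjusted p of at most 0.05) and 0 in DESeq2. The gene body peaks summed to 11.4 ± 1.06, 14.1 ± 1.55, 31.5 ± 2.10 and 43.1 ± 7.53 CPM in unstimulated WT and AhR-KO and then LPS-treated WT and AhR-KO. The 11 genotype calls with LPS ran from 1.501- to 1.755-fold, close to the limit, and after thinning to the lowest total 1 was called. The stricter filter gave 7. Without LPS, thinning gave 2.

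Within Ass1, the peak chr2:31490711-31493047 was at 0.726, 0.832 and 1.19 CPM in unstimulated WT and 1.39, 1.81 and 2.06 CPM in unstimulated AhR-KO, with no overlap (log2 1.0 ± 0.18, edgeR adjusted p = 2.4e-05). With LPS it was at 2.84, 3.27 and 4.20 against 3.88, 5.18 and 6.23 CPM, with overlap, and the difference of 0.57 ± 0.12 was a DAR with RLE size factors or DESeq2 (0.59) but not with TMM. The intronic peak chr2:31482266-31483459 was higher in AhR-KO with LPS (0.63 ± 0.11) and not separable without it (0.14 ± 0.13). Past the 3′ end, chr2:31521332-31523295 rose with LPS by 2.29 ± 0.19 in WT and 1.99 ± 0.16 in AhR-KO. Its genotype difference with LPS, 0.59 ± 0.14, sat at the fold limit and fell below it with the replicate block, without the count filter, with the stricter filter (0.55 to 0.58) or after thinning (0.53). The Ass1 promoter peak (chr2:31469821-31471010) had medians of 18.4, 25.3, 19.8 and 20.4 CPM. It was higher in all 6 unstimulated AhR-KO libraries than in any unstimulated WT library (0.48 ± 0.08), below the fold limit, with an interaction of -0.41 ± 0.11.

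Asl (chr5:130011258-130029247, minus strand), whose product completes the rebuilding of arginine, showed little difference. Its promoter peak (chr5:130029059-130029938), shared with the divergent gene Crcp, had medians of 14.2, 16.8, 15.03 and 15.1 CPM, and its gene body peak means of 26.2 ± 1.53, 26.3 ± 0.91, 24.9 ± 1.40 and 25.9 ± 1.81 CPM. Of 11 tested peaks, 1 was a DAR in unstimulated AhR-KO and 0 with LPS. The former, chr5:130046144-130046416, which lies toward Crcp, was at 1.28, 1.92 and 2.31 CPM in WT and 0.869, 1.15 and 1.53 CPM in AhR-KO (-0.66 ± 0.20), was not a DAR after thinning, and fell with LPS by 1.72 ± 0.22 in WT and 1.66 ± 0.25 in AhR-KO (log2). For the LPS comparison by genotype, edgeR gave 0 higher and 1 lower at an unadjusted p of at most 0.05, and DESeq2 called 0.

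Arg1 (chr10:24915221-24927484, minus strand), the cytosolic arginase that competes with NOS2 for arginine, changed little at its promoter. That peak (chr10:24927475-24928497) was at 12.4, 13.4 and 14.1 CPM in unstimulated WT, at 13.1, 14.8 and 17.3 CPM in unstimulated AhR-KO, at 11.4, 12.8 and 13.2 CPM in WT LPS and at 14.6, 16.9 and 20.6 CPM in AhR-KO LPS. With LPS all AhR-KO libraries were above all WT libraries, by 0.44 ± 0.08 (edgeR adjusted p = 1.8e-05), a 1.36-fold difference below the limit for a DAR. LPS changed it by -0.08 ± 0.08 in WT and 0.19 ± 0.08 in AhR-KO. The most accessible Arg1 peak, upstream at chr10:24930076-24930765 and chosen after its values were seen, was at 29.8, 33.7 and 38.4 CPM in unstimulated WT and at 41.1, 45.5 and 51.6 CPM in unstimulated AhR-KO, and lower with LPS, at 19.1, 25.9 and 31.1 and at 30.5, 30.99 and 34.9 CPM. It was a DAR in none of the comparisons, with log2 fold changes by LPS of -0.40 ± 0.08 in WT and -0.52 ± 0.08 in AhR-KO, but passed the fold limit in WT after thinning (-0.70) and in AhR-KO under the stricter filter (-0.60).

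The Arg1 DARs lay in the gene body and downstream, where the neighbouring gene Med23 overlaps the window, and a peak there cannot be assigned to Arg1 rather than Med23 by position. The peak printed above, chr10:24908778-24909102, was at 0.330 CPM or less in unstimulated WT and at 0.757 CPM or less in unstimulated AhR-KO, and at 2.91, 3.33 and 6.92 CPM in WT LPS and 4.001, 5.27 and 8.26 CPM in AhR-KO LPS. LPS raised it by 3.90 ± 0.34 in WT (edgeR adjusted p = 7.2e-11) and 4.01 ± 0.31 in AhR-KO (edgeR adjusted p = 3.5e-12), and the genotypes overlapped in both conditions. A peak farther into Med23, chr10:24902033-24902806, was higher in AhR-KO without LPS (0.84 ± 0.13) and with LPS (0.60 ± 0.11), with the latter at 0.57 under the stricter filter. In all, 2 of 11 Arg1 peaks (18.2%, against 22.6% of all peaks) were higher in unstimulated AhR-KO and 0 lower. With LPS 4 were higher (36.4%, against 26.5%, 2 under the stricter filter and 1 after thinning) and 0 lower. LPS raised 4 in WT (36.4%, against 47.0%) and 3 in AhR-KO (27.3%, against 48.8%). Some Arg1 peaks, such as those starting at 24905039 and 24917940, were called on single libraries in AhR-KO LPS only. The counts by genotype with LPS and for LPS in AhR-KO are thus not independent of how the peaks were chosen. The interaction called 0 in edgeR (1 higher at an unadjusted p of at most 0.05) and 0 in DESeq2.

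Arg2 (chr12:79130777-79156301, plus strand), the mitochondrial arginase, had a promoter peak that passed the fold limit for LPS in AhR-KO but not in WT. That peak (chr12:79130436-79132674) was at 22.98, 26.2 and 28.8 CPM in unstimulated WT and 22.5, 23.04 and 24.7 CPM in unstimulated AhR-KO, and at 31.6, 36.8 and 38.5 CPM in WT LPS and 38.9, 40.1 and 43.6 CPM in AhR-KO LPS. All LPS libraries were above the unstimulated libraries of their genotype. It rose by 0.80 ± 0.06 in AhR-KO, a DAR, and by 0.45 ± 0.06 in WT, and the interaction was 0.35 ± 0.08 (edgeR adjusted p = 0.0039), below the fold limit. Of the 7 Arg2 peaks, 0 were DARs between unstimulated genotypes in edgeR (2 higher and 1 lower at an unadjusted p of at most 0.05) and 0 in DESeq2, and with LPS 1 was higher in AhR-KO, the intronic peak chr12:79138019-79138375 (0.66 ± 0.14), whose groups overlapped. The peak at the 3′ end, chr12:79155837-79156519, which overlaps the neighbouring gene Vti1b, rose by 1.66 ± 0.31 in WT and 1.33 ± 0.28 in AhR-KO from levels of 0.814 CPM or less.

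Odc1 (chr12:17544794-17551505, plus strand), the first enzyme of polyamine synthesis, had a promoter peak (chr12:17544224-17545575) with medians of 36.8, 34.6, 41.2 and 39.2 CPM that was a DAR in no comparison. Upstream, chr12:17540263-17540849 was lower in AhR-KO. It was at 2.44, 3.39 and 4.05 CPM in unstimulated WT against 1.43, 1.78 and 2.33 CPM in AhR-KO, and at 3.13, 5.27 and 5.83 against 1.18, 1.37 and 2.11 CPM with LPS, with no overlap in either condition. The difference was -0.90 ± 0.17 (edgeR adjusted p = 4.8e-05) without and -1.64 ± 0.16 (edgeR adjusted p = 2.2e-10) with LPS. The interaction of -0.75 ± 0.23 (edgeR adjusted p = 0.026) turned to 0.16 and did not pass when libraries were thinned to the lowest total.

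Toward the 3′ end of Odc1, the exonic peak chr12:17549359-17549723 was at 0.795 CPM or less in unstimulated WT and 0.866 CPM or less in unstimulated AhR-KO, and at 3.03, 3.58 and 5.43 CPM in WT LPS and 6.89, 7.94 and 8.31 CPM in AhR-KO LPS, so that the LPS groups lay apart. It was 2.03-fold higher in AhR-KO with LPS (log2 1.02 ± 0.14, edgeR adjusted p = 2.5e-07). Odc1 and Arg2 lie on chromosome 12, as Ahr does, 17.99 and 43.6 Mb from it, and the strain name of the knockout records 129 ancestry, so that loss of AhR and any 129 DNA at these genes cannot be told apart.

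**Figure D4:**
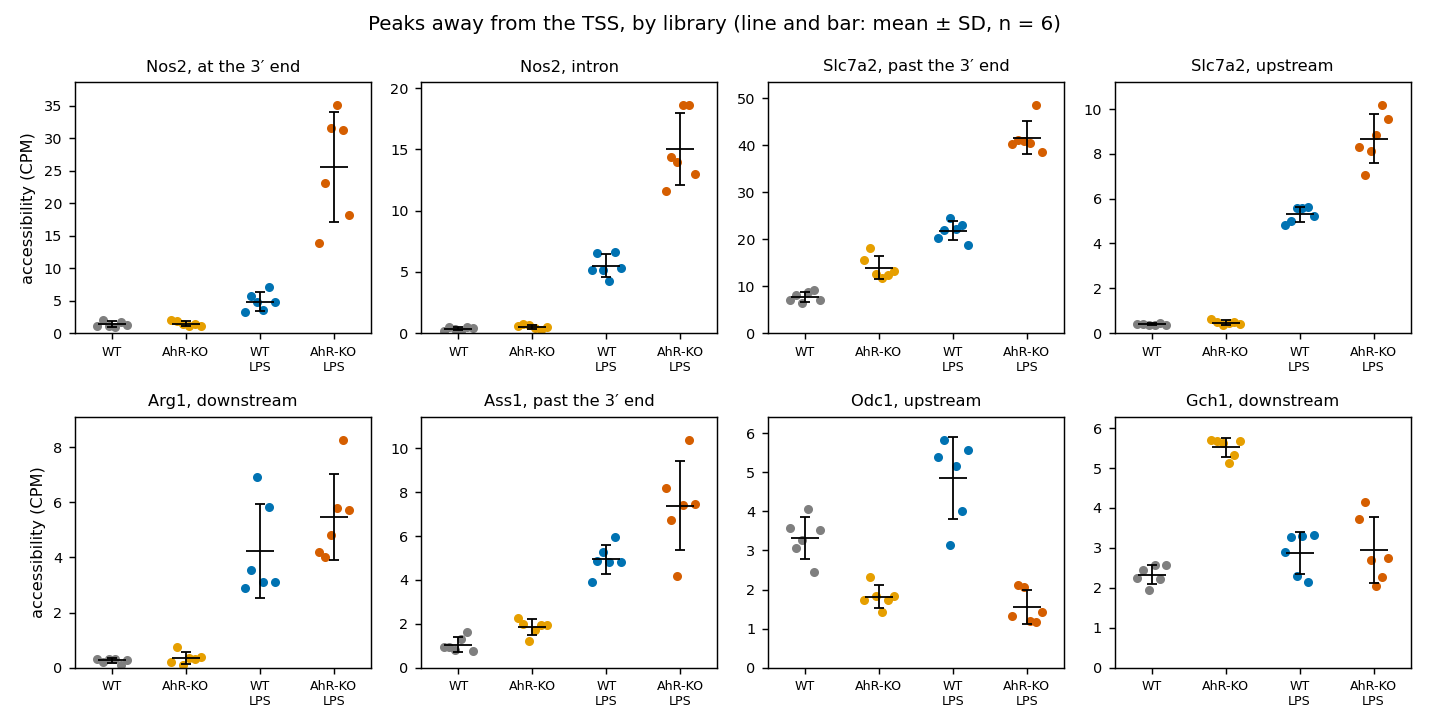
Accessibility in CPM of 8 peaks away from the TSS, one point per library (6 per group) with the group mean and SD; WT and AhR-KO without a further label are the unstimulated groups. The LPS groups lie apart at both Nos2 peaks and both Slc7a2 peaks, with AhR-KO higher, and at the Odc1 peak with AhR-KO lower, while the Arg1 peak rises with LPS in both genotypes with overlap, and the Gch1 peak is high in unstimulated AhR-KO only.

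The calls made on each library alone gave a second reading of the same libraries. Counting, for each gene, how many of its consensus peaks were overlapped by a peak of the library itself and adding over the 6 libraries of a group, Nos2 reached 25 of 120 in unstimulated WT, 25 in unstimulated AhR-KO, 46 in WT LPS but 73 in AhR-KO LPS. Slc7a2 reached 56, 81, 129 and 152 of 198 in the same order, and Ass1 26, 25, 65 and 64 of 126. The order at Nos2 and Slc7a2 was that of the counts, and for Ass1 the genotypes were level. The consensus peaks were merged from these same calls, and some Nos2 peaks were called in AhR-KO LPS only, so this reading is no independent support. Mean library totals were 18.6, 22.7, 30.6 and 25.6 M in the same order, and the part of depth in these calls was not tested. The corresponding sums were 42, 40, 53 and 60 of 78 for Gch1, 36, 38, 41 and 48 of 66 for Arg1, and 26, 27, 28 and 31 of 42 for Arg2. They were 44, 43, 39 and 43 of 72 for Asl and 27, 27, 25 and 26 of 54 for Odc1.

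Other genes of arginine metabolism were read by their promoter peak. For these genes and the cell type markers, this was the peak over the TSS or else the nearest within 2 kb. Those of Oaz2, Otc and Smox lay 1586, 341 and 84 bases from the TSS. Of 37 such genes, 33 had one, and Nos1, Nos3, Cps1 and Agmat had none. In unstimulated cells 1 of the 33 was higher in AhR-KO and 0 lower, and with LPS 1 was higher and 2 lower. Of all tested peaks over a TSS, 5.43% and 6.34% were DARs in these comparisons, so such counts do not set the list apart. Nags, which makes the activator of the urea cycle's entry enzyme, was higher in AhR-KO in both conditions, at 2.47 ± 0.28 against 5.59 ± 1.01 CPM without LPS (log2 1.18 ± 0.14) and 4.49 ± 0.78 against 9.55 ± 1.22 CPM with LPS (1.09 ± 0.11). Slc7a7, part of a basic amino acid exchanger, was lower in AhR-KO with LPS, at 3.15 ± 0.52 against 1.59 ± 0.12 CPM (-0.99 ± 0.14), as was the proline dehydrogenase gene Prodh, at 19.8 ± 2.48 against 12.2 ± 1.62 CPM (-0.69 ± 0.08). Their interactions were -0.72 ± 0.21 and -0.61 ± 0.12. Ddah1, which degrades inhibitors of nitric oxide synthases, fell with LPS by 0.68 in both genotypes on the log2 scale. None of the 10 polyamine genes and none of the 6 genes of tetrahydrobiopterin synthesis and recycling was a DAR by edgeR in any of the 5 comparisons. Over all peaks at a TSS the shares were 5.43% and 6.34% by genotype without and with LPS. They were 9.29% and 14.5% for LPS in WT and AhR-KO and 3.25% for the interaction, so 0 in lists this short says little. Added over those comparisons, 17 polyamine and 11 tetrahydrobiopterin results had an unadjusted p of at most 0.05, 13 and 8 an adjusted p of at most 0.05 below the fold limit, and DESeq2 called 0 of either list.

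Among the promoter peaks of 12854 genes, those whose levels ran closest to the Nos2 promoter peak over the 24 libraries were Zbp1 (Pearson r = 0.974), AW011738 (0.972), Tm4sf19 (0.965), Ifit3b (0.964) and Parp14 (0.964). The Arg1 promoter peak was less closely followed, by Tmem51 (0.801), Snap23 (0.798), Mrgbp (0.796), Prss30 (0.793) and Gramd2 (0.792). These correlations describe 24 libraries that fall into 4 groups and share depth and normalization within a library, and carry no test.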

How the data were processed

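The 24 ATAC-seq libraries were grouped by their labels. The authors ran the nf-core atacseq pipeline on mm10: reads were trimmed, aligned and filtered, broad peaks were called per library with MACS2, and the calls were merged into one set over all libraries. The deposited table held raw counts of read pairs per consensus peak from featureCounts 2.0.1 (overlap fraction 0.2, per the file headers), and the deposited per-library peak lists gave -log10 q-values. Peak starts, counted from 0 in the table, were raised by 1. No replicates were pooled.

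The test was that of edgeR 4.0.16 under R 4.3.3 (filterByExpr by group, TMM, robust quasi-likelihood fit of all 24 libraries with group as the only term). P-values were two-sided. The SE was the size of the log2 fold change divided by the square root of F. The procedure was tested on simulated data. Libraries of a group were compared in pairs (60), and none agreed within sampling noise (lowest chi-square per peak 1.26). Named peaks were the peak over each TSS and, per gene and comparison, the DAR with the smallest p. Other peaks named were chosen after their values were seen, whether or not this is said at the peak. Alternatives were RLE size factors, DESeq2 1.42.0, other filters, folds and windows, thinning to the lowest total, a replicate block and leaving out WT unstimulated replicate 5. Replicate numbers were not used as pairs, since same-numbered libraries did not deviate together throughout. The members, gene lists and tests were chosen with earlier results of these data known. Gene names and positions came from GENCODE vM21, and RNA-seq was not used here. A lymphocyte marker is not reported here.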

Additional observations from a re-analysis of the deposited data

Results flagged for a closer look

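In 208 sets of 6 libraries at 52 peaks, 7 held a library farther from the rest than Dixon's limit for 6 samples allows, where chance alone flags about 1 in 20. AhR-KO LPS replicate 5 was the high library in 3 of them: the Slc7a2 peak past the 3′ end starting at 40922567 (48.6 CPM, the others 38.5 to 41.2), the Slc7a2 gene body peak starting at 40913666 (11.7 CPM, the others 6.24 to 7.76) and the Arg1 upstream peak starting at 24930076 (34.9 CPM, the others 30.5 to 31.9). AhR-KO unstimulated replicate 3 was high at the Arg2 promoter (24.7 CPM, the others 22.5 to 23.2). WT unstimulated replicate 6 was low at the Gch1 promoter (34.8 CPM, the next 37.5) and high at the Nos2 upstream peak starting at 78913046 (0.396 CPM, the next 0.138). AhR-KO LPS replicate 3 was low at a peak of the Asl window starting at 130044107 (1.08 CPM, the next 1.63).

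The genotype difference changed with LPS, by the interaction test in edgeR, at 15 peaks. At 10 peaks of Nos2 it was larger with LPS, by 0.77 on the log2 scale at the peak starting at 78923090, 1.60 at 78924302, 3.07 at 78931008, 2.04 at 78936279, 1.02 at 78949417, 1.54 at 78956424, 3.27 at 78957814, 2.22 at 78958490, 2.35 at 78959513 and 2.28 at 78960036. The peak at 78923090 was the only one of these at which AhR-KO lay below WT without LPS at an unadjusted p of at most 0.05. Some of the others, such as those at 78957814 and 78959513, were called on single libraries in AhR-KO LPS only. At Gch1 the change was -1.39 at 47139954, -1.19 at 47148017, 1.29 at 47149309 and 0.86 at 47150692, so that it turned sign within a few kb, and at Odc1 it was -0.75 at 17540263.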

How the results depend on the processing

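The counts of member DARs kept their direction. With a fold limit of 2, after thinning, and in the window of gene body and 5 kb upstream, 5 counts stayed within 1.5 times the main count and 5 did not. Under each other alternative most stayed within it. With a fold limit of 2, 14 peaks instead of 29 were higher and 1 instead of 5 lower in unstimulated AhR-KO, 20 instead of 58 were higher with LPS, and 2 and 3 instead of 5 each fell with LPS in WT and AhR-KO. With no fold limit, 9 were lower in unstimulated AhR-KO, 8 with LPS, and 11 fell with LPS in each genotype. In unstimulated AhR-KO, 3 were lower with RLE size factors, with DESeq2, and with at least 1 CPM in 6 libraries. Thinning every library to the lowest total, which leaves fewer counts, gave 35 higher and 2 lower in AhR-KO with LPS, 3 that fell with LPS in AhR-KO, and 4 higher and 1 lower in the interaction. There the Odc1 upstream interaction turned to 0.16, and the cause was not tested. In a window of gene body and 5 kb upstream, 3 were lower in unstimulated AhR-KO and 2 with LPS, 1 fell with LPS in WT and 0 in AhR-KO, and 1 was lower in the interaction. In this smaller window there are fewer peaks.

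With the replicate number as a block, which moved no total by over 1.5 times, 28 were higher and 5 lower in unstimulated AhR-KO, 56 and 4 with LPS, 72 and 5 for LPS in WT, 79 and 6 in AhR-KO and 12 and 3 in the interaction. With the replicate block within genotype, the last 3 were 72 and 5, 79 and 6, and 13 and 3. Same-numbered libraries correlated by 0.037 to 0.290 between WT unstimulated and WT LPS (4 of 6 best with their own number, a hint from the data and not the design) and by 0.0038 to 0.171 between the AhR-KO groups (3 of 6), so the numbers were not taken as pairs. Without WT unstimulated replicate 5, the counts were 28 and 5, 58 and 4, 72 and 6, 79 and 6, and 12 and 3. Unstimulated levels below 1 CPM rest on few counts, which limits what could be detected there.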
